A study of Sus scrofa with 8 samples.

Results

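The transcription factor genes of the mesenchyme examined in pig embryonic fibroblasts (PEFs) were PRRX1, PRRX2, TWIST1, TWIST2, TCF21, MEOX1, MEOX2, EBF1, EBF2 and OSR1. They were chosen by name and make up 10 of the 28077 RefSeq genes on chromosomes 1 to 18 and X of the assembly Sscrofa11.1. The cells came from fetuses of Large White pigs aged 35 days and were cultured for 24 h without any treatment. Chromatin immunoprecipitation followed by sequencing (ChIP-seq) had been carried out for H3K4me3, H3K27ac and CTCF, with 2 libraries each, and the peaks listed for these 6 libraries were used. There was 1 cell type and no treated group, so each value is a description of these cells and no test was run.

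Mesenchymal cells give rise to fibroblasts, bone, cartilage, fat and smooth muscle, and the 10 genes encode DNA-binding proteins known for their roles in that lineage. PRRX1, PRRX2, MEOX1 and MEOX2 are homeodomain proteins, which act in limb, skull and somite development. TWIST1, TWIST2 and TCF21 are basic helix-loop-helix (bHLH) proteins, which bind as dimers to the short palindrome called the E-box. EBF1 and EBF2 belong to the early B-cell factor family and also act in adipose and stromal cells, and OSR1 is a zinc finger protein of the odd-skipped family that marks connective tissue progenitors. H3K4me3 is a histone mark found around active or poised transcription start sites (TSSs), and H3K27ac is found at active promoters and enhancers. CTCF is a zinc finger protein that binds a long directional motif and anchors chromatin loops, most often where a pair of motifs point at each other.

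The cell label was checked first against marker genes. All 10 fibroblast markers, among them COL1A1, COL1A2, PDGFRA and VIM, carried both H3K4me3 and H3K27ac within 1 kb of the TSS in both replicates. H3K27ac was present in both replicates at 1 of 8 epithelial markers (CLDN4), 0 of 5 endothelial markers, 2 of 5 blood markers (LAPTM5 and SPI1), 2 of 5 skeletal muscle markers (DES and MYOG) and 1 of 4 neural markers (SNAP25). EPCAM, CDH1, PECAM1, CDH5, PTPRC and SOX10 were among the markers with no H3K27ac peak there in either library. SPI1, in contrast, had H3K27ac fold enrichments of 12.4 and 17.0. H3K4me3 separated the epithelial, muscle and neural lists less, being present at 7 of the 8, 4 of the 5 and 3 of the 4 markers. It was at 1 of the 5 endothelial markers and at 1 of the 5 blood markers, fewer than H3K27ac in the blood list. Over all genes the shares were 55.4% for H3K4me3 and 50.1% for H3K27ac. Each library listed between 37932 and 81164 peaks. Because the lists hold no read counts, depth per peak could not be given.

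The promoters of the 10 genes differ widely in CpG content, which is shown by the 250 bases before the TSS of PRRX1 (chr4:80502690-80502939, minus strand), TWIST2 (chr15:138228390-138228639, plus strand, overlapping the divergent long noncoding RNA gene LOC106505784) and OSR1 at the start of its RefSeq gene (chr3:118368221-118368470, plus strand). PRRX1 had the widest H3K4me3 and the OSR1 start had none. TWIST2 was added after its values were seen, as the member with the most CpGs here. Capitals mark CpG dinucleotides, and each sequence reads 5′ to 3′ on the strand of its gene in Sscrofa11.1.
PRRX1 promoter: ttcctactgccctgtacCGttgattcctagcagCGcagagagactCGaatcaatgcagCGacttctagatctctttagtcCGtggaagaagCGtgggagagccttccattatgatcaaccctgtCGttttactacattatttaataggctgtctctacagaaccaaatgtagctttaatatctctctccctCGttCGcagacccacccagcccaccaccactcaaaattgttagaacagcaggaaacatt
TWIST2 promoter: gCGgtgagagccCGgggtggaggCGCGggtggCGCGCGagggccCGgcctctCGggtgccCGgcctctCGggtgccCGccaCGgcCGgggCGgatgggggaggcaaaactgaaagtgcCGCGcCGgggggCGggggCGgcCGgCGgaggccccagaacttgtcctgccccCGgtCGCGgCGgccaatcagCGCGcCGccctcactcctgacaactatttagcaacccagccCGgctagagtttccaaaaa
OSR1 gene start: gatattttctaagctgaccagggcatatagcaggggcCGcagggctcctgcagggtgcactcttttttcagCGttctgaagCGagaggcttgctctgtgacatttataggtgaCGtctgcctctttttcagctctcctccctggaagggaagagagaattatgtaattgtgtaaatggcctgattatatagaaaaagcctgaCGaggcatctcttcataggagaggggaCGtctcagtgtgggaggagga
The TWIST2 stretch held 30 CpGs, against a median of 9 over all genes. PRRX1 had 9 and the OSR1 gene start had 6.

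H3K4me3 peaks lay within 1 kb of the TSS of 9 of the 10 genes in both replicates, compared with 55.4% of all genes. H3K27ac peaks did so at 9 of 10, compared with 50.1% of all genes, and these were the same 9 genes. Over protein-coding genes alone the shares were higher, 68.9% for H3K4me3 and 60.7% for H3K27ac. Among all genes with H3K4me3 in both replicates, 84.9% also had H3K27ac, and the mesenchymal genes stood at 9 of 9. OSR1 was the exception and is described below. The peaks did not all span the TSS itself, as at MEOX1 the H3K27ac peak of replicate 1 ended upstream of it, and EBF2 is described below. The peaks were wide. The median width over the 9 marked genes was 8.52 kb for H3K4me3, against 2.82 kb over all marked genes, and 6.34 kb for H3K27ac, against 2.47 kb. PRRX1, PRRX2, TWIST1, TWIST2, MEOX2, EBF1 and EBF2, 7 of the 9, were among the widest 5% of H3K4me3 peaks (over 6.76 kb, which by construction holds 5.01% of marked genes). PRRX1, PRRX2, TWIST1 and MEOX2, 4 genes, were among the widest 5% for H3K27ac (over 8.91 kb, 5.01% of marked genes). EBF1, at a mean of 6.86 kb, was the member just inside the H3K4me3 limit, and TCF21, at 5.85 kb, the one just outside. In height the peaks were close to the rest, with a median fold enrichment of H3K4me3 over the control of 39.4 for the 9 genes and 38.7 over all marked genes.

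**Figure D1:**
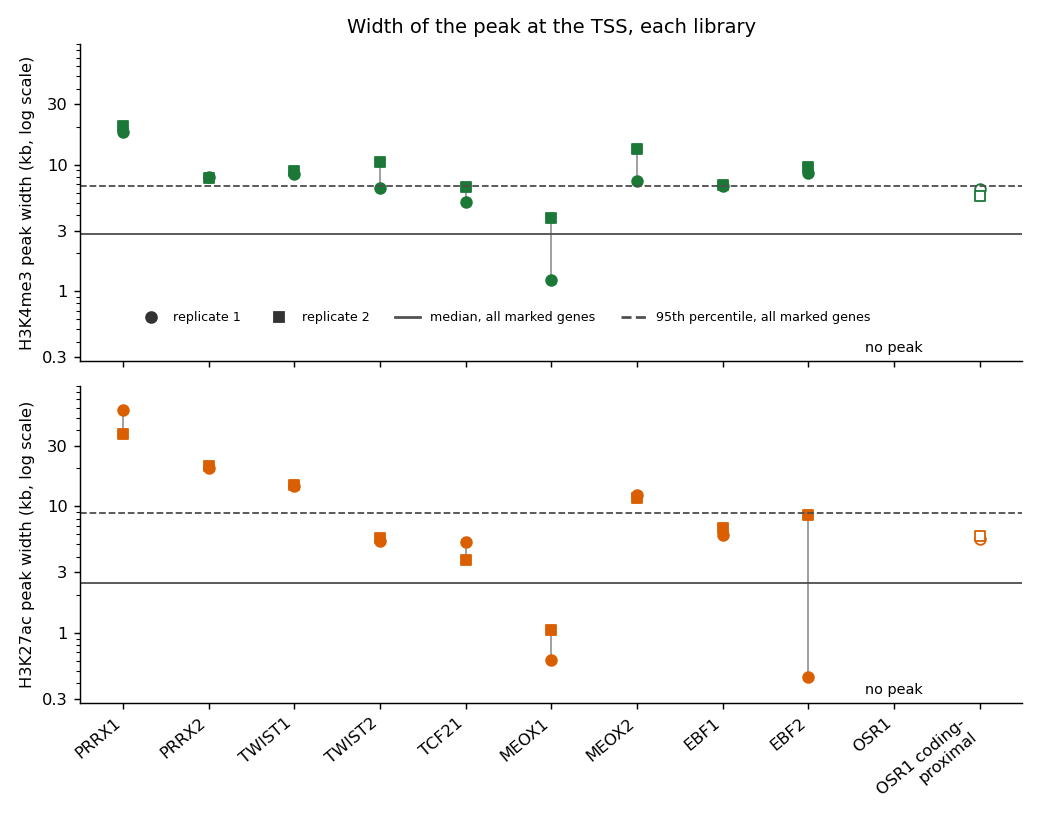
Width in kb (log scale) of the H3K4me3 peak (upper panel) and the H3K27ac peak (lower panel) within 1 kb of each TSS, with replicate 1 as circles and replicate 2 as squares joined by a line. Solid and dashed lines give the median (2.82 and 2.47 kb) and the 95th percentile (6.76 and 8.91 kb) over all marked genes, and open symbols show OSR1 at the transcript start nearest to its coding sequence.

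Among the homeodomain genes, PRRX1 (chr4:80427682-80502689, minus strand) had the widest listed peaks of the set. Its H3K4me3 peak was 18.3 kb in replicate 1 and 20.4 kb in replicate 2, which ranked 26 of 15564 marked genes by mean width. Its H3K27ac peak was 58.1 kb in replicate 1 and 37.2 kb in replicate 2, rank 18 of 14064. Both marks lay mainly downstream. H3K4me3 reached from 1.62 kb and 1.59 kb upstream to 16.7 kb and 18.8 kb into the gene, and H3K27ac from 2.48 kb and 2.46 kb upstream to 55.6 kb and 34.8 kb into it. The replicates differed by 20.8 kb in the width of the H3K27ac peak but little in the share of the gene under H3K27ac peaks, which was 92.3% and 89.2%, in 6 and 7 peaks. The fold enrichment of its H3K4me3 peak was 38.1 and 24.9, lower than in most marked genes (percentile 32.2).

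PRRX2 (chr1:269853134-269902808, plus strand), its paralog, had narrower peaks at the TSS. H3K4me3 measured 8.06 and 7.92 kb, and H3K27ac 20.2 and 21.0 kb. The mean difference from PRRX1 was 11.4 kb for H3K4me3, larger than the 2.12 kb by which replicates of either gene differed, and 27.1 kb for H3K27ac, beside a largest replicate gap of 20.8 kb. The values of the paralogs did not overlap for either mark. With peaks joined over gaps of up to 1 kb, however, the mean H3K27ac width was 73.5 kb at PRRX2 and 58.2 kb at PRRX1, so the order of the pair for H3K27ac depended on how peaks were split. H3K27ac peaks covered nearly the whole PRRX2 gene, 99.2% and 99.3%, and over the window of 100 kb on each side of the TSS they covered 129 and 133 kb. This was the second largest cover among all 28077 genes (rank 2), while PRRX1, with 116 and 111 kb, ranked 26. PRRX2 has 7 other TSSs within that window and PRRX1 has 1, so the acetylated sequence there cannot be assigned to the PRRX genes alone.

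The MEOX paralogs also differed. MEOX2 (chr9:84945178-85009939, minus strand) had H3K4me3 peaks of 7.46 and 13.3 kb and H3K27ac peaks of 12.4 and 11.6 kb. MEOX1 (chr12:19431397-19452430, plus strand) had H3K4me3 peaks of 1.22 and 3.78 kb and H3K27ac peaks of 0.615 and 1.05 kb. MEOX1 was therefore at percentile 39.5 of H3K4me3 width and 5.28 of H3K27ac width among marked genes. The mean difference of 7.87 kb in H3K4me3 width exceeded the largest replicate gap of 5.83 kb, and the mean H3K27ac widths of 0.834 and 12.0 kb lay further apart than the largest replicate gap of 0.787 kb. The MEOX1 peaks were also low, with H3K4me3 fold enrichments of 7.38 and 5.92 where MEOX2 had 66.3 and 38.7. For H3K27ac they were 3.47 and 3.12 at MEOX1, where MEOX2 had 13.7 and 25.3. The H3K27ac call at MEOX1 was lost when peaks had to reach a −log10 q-value of 5, and its H3K4me3 call when the replicate peaks had to overlap by 50%. The MEOX2 peaks also cover the TSS of a divergent noncoding gene, LOC106504971, 504 bp upstream.

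Of the bHLH genes, TWIST1 (chr9:88286911-88290131, minus strand), a regulator of cranial and limb mesenchyme, is only 3.22 kb long and lay entirely within peaks of both marks. H3K4me3 measured 8.48 and 8.94 kb and H3K27ac 14.6 and 14.7 kb. The H3K27ac peak also contained the TSS of the noncoding gene LOC110262240, 10.5 kb downstream. TWIST2 (chr15:138228640-138276341, plus strand) had H3K4me3 peaks of 6.49 and 10.5 kb, which overlapped those of TWIST1 in range, with a mean difference of 0.190 kb against a largest replicate gap of 4.05 kb. Its H3K27ac peaks, 5.37 and 5.58 kb, were narrower than those of TWIST1 by 9.15 kb on average, against a largest replicate gap of 0.218 kb. The TWIST2 peaks also covered the noncoding TSS of LOC106505784, only 114 bp upstream.

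TCF21 (chr1:29975280-29978273, minus strand), a bHLH factor of cardiac, kidney and lung mesenchyme, is 2.99 kb long and was also covered in full by both marks. H3K4me3 measured 5.09 and 6.61 kb and H3K27ac 5.20 and 3.77 kb. Its H3K27ac peak was narrower than that of TWIST1. The fold enrichments at TCF21 were 37.8 and 50.3, at percentile 98.6 of marked genes, and overlapped in range the 33.5 and 40.6 at TWIST1. MSC, a bHLH relative of TCF21, also carried both marks, with mean widths of 5.22 kb for H3K4me3 and 3.48 kb for H3K27ac.

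EBF1 (chr16:64357999-64753188, plus strand) and EBF2 (chr14:9816992-10027574, minus strand) are long genes, of 395 and 211 kb. EBF1 had H3K4me3 peaks of 6.78 and 6.95 kb and H3K27ac peaks of 5.93 and 6.75 kb. EBF2 had H3K4me3 peaks of 8.53 and 9.60 kb. H3K27ac at EBF2 differed between the replicates. In replicate 1 the peak within 1 kb of the TSS lay upstream and was only 0.445 kb wide with a fold enrichment of 3.70, and a peak of 7.90 kb with a fold enrichment of 15.2 began 1.16 kb inside the gene. In replicate 2 a single peak of 8.59 kb with a fold enrichment of 16.2 began 0.548 kb inside the gene. The same acetylated block was thus listed in both libraries, with its edge on different sides of the 1 kb limit. The peaks behind the H3K27ac call at EBF2 shared no base between the replicates, so its mean width of 4.52 kb joins different peaks. The call was lost when the replicate peaks had to overlap by 50%. EBF3, another gene of the family, had the widest H3K4me3 of the relatives, a mean of 23.4 kb, and an H3K27ac width of 5.62 kb.

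OSR1 (chr3:118368471-118765107, plus strand) had no peak of any of the 3 targets within 1 kb of the start of its RefSeq gene. That start lies 394 kb before the first coding base, and RefSeq lists 8 transcript starts for the gene. At the starts closest to the coding sequence, 389 to 392 kb into the gene, H3K4me3 measured 6.48 and 5.66 kb with fold enrichments of 50.9 and 27.3, and H3K27ac measured 5.55 and 5.84 kb with fold enrichments of 16.8 and 23.2. These widths fall at percentiles 93.0 and 87.5 of marked genes. With any transcript start allowed, all 10 genes were marked by H3K4me3 and by H3K27ac in both replicates, compared with 57.8% and 52.3% of all genes. The CpG observed/expected ratio within 1 kb was 0.315 at the RefSeq gene start and 0.705 at the coding-proximal start. OSR2, the paralog, had mean widths of 12.9 kb for H3K4me3 and 14.3 kb for H3K27ac.

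Genes that share a fold or a partner with these factors were listed for comparison. The partner list, made up of the E proteins TCF3, TCF4 and TCF12, the ID inhibitors of bHLH dimers, HAND2 (also among the relatives) and cofactors of homeodomain proteins such as MEIS1 and MEIS2, was marked by both H3K4me3 and H3K27ac at 11 of 11 genes, with a median H3K4me3 width of 7.35 kb. Of 15 relatives of the 10 genes, 13 had H3K4me3 and 9 had H3K27ac in both replicates. HAND1, PITX1, SCX and TCF15 carried H3K4me3 alone, and ALX4 was among those with neither. Of 16 bHLH genes that specify neurons, glia or skeletal muscle, 13 had H3K4me3, but only 3 had H3K27ac, and the median H3K4me3 width was 1.65 kb. The mesenchymal bHLH genes TWIST1, TWIST2 and TCF21 had both marks, as did ATOH7 and NEUROG2 of the second list. ATOH7 had H3K27ac fold enrichments of 26.2 and 28.9 and NEUROG2 of 2.92 and 3.11. MYOG had H3K27ac alone, and 11 genes of that list, among them NEUROD1, MYOD1 and MYF5, had H3K4me3 without H3K27ac. OLIG2 had the widest H3K4me3 of the second list, a mean of 7.39 kb, with no H3K27ac peak. The widest 5% for H3K4me3 held 8 of the 11 partners, 6 of the 10 fibroblast markers and 5 of the 15 relatives. For H3K27ac it held 5, 7 and 2 of them. These lists were not compared by a test.

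**Figure D2:**
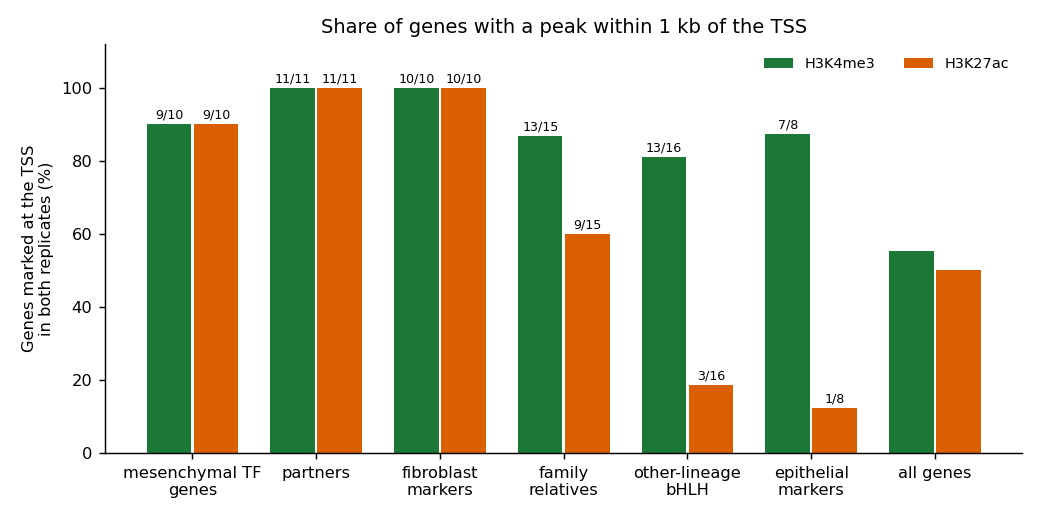
Share of genes (percent, bars from 0) with an H3K4me3 or H3K27ac peak within 1 kb of the TSS in both replicates, for the 10 mesenchymal transcription factor (TF) genes, 5 other gene lists and all 28077 genes. H3K4me3 was at 13 of 16 bHLH genes of other lineages and at 9 of 10 mesenchymal genes, whereas H3K27ac was at 3 of 16 and 9 of 10.

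H3K27ac peaks of a library that lay more than 1 kb from every annotated TSS and overlapped a peak of the other replicate are called distal here. Within 100 kb of the TSS, the median over the 10 genes was 9.50 such peaks, against 4 over all genes, and 9 of the 10 lay above that median (49.5% of all genes do). PRRX1 had 15 and 21 distal peaks in replicates 1 and 2, PRRX2 had 16 and 18, and EBF2 had 16 and 16. EBF1 followed with 12 and 12, TWIST2 with 10 and 11, TWIST1 and MEOX2 with 9 and 8 each, MEOX1 with 6 and 6, and TCF21 with 5 and 6. OSR1 had 4 and 4 around its RefSeq start, and 4 and 5 around the coding-proximal start. PRRX1, PRRX2 and EBF2 were not separated from one another beyond their replicate spread, and neither were TWIST1 and MEOX2 or MEOX1 and TCF21. Because only peaks overlapped in the other replicate count, this spread can be narrower than that of the full lists. Without that rule replicates 1 and 2 had 17 and 14 at EBF1 and 11 and 15 at TWIST2. At PRRX1, with 17 and 22, the spread was not wider. The distal count includes, at EBF2, the block that begins 1.16 kb inside the gene in replicate 1. Several counts depended on the limits. With distal peaks over 5 kb from every TSS, the mean fell from 6 to 2 at MEOX1 and from 17.0 to 11.0 at PRRX2. With windows reaching 100 kb beyond both gene ends it was 15.5 at OSR1, 20 at EBF1 and 17.0 at TWIST2. With replicates overlapping by 50% it was 12.0 at PRRX1 and 5 at TWIST1, and without replicate 1 it was 7 at OSR1.

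The length covered by any H3K27ac peak within 100 kb had a median of 29.4 kb over the 10 genes, against 13.2 kb over all genes. TWIST1 (31.1 and 29.5 kb), MEOX2 (31.0 and 26.4 kb), EBF1 (33.2 and 31.0 kb) and EBF2 (30.1 and 30.2 kb) lay near the median of the 10. The partners, fibroblast markers and relatives had medians of 25.5, 51.5 and 14.2 kb. Position alone does not show which gene a distal peak acts on, and the target genes were not tested.

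**Figure D3:**
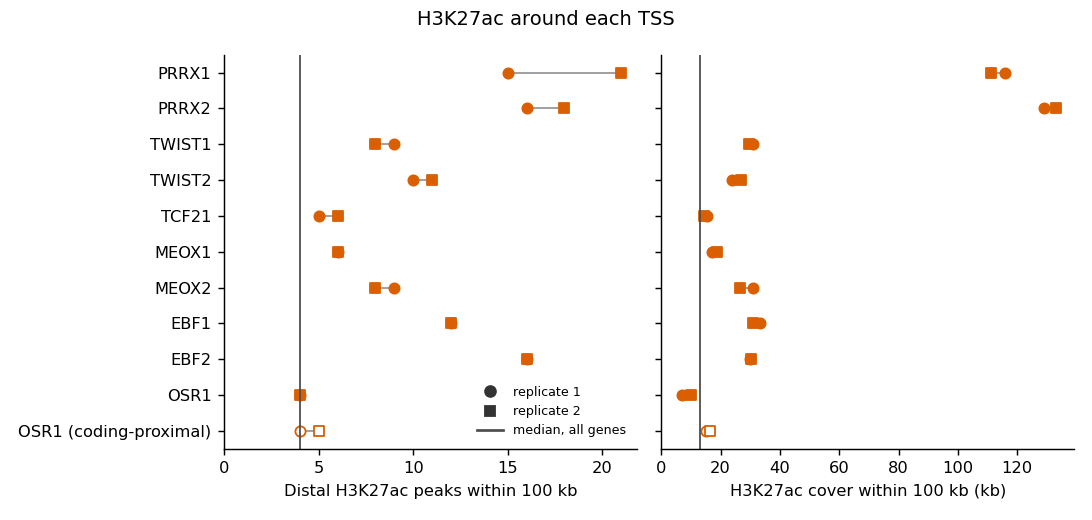
Number of distal H3K27ac peaks (left) and kb covered by any H3K27ac peak (right) within 100 kb of each TSS, with replicate 1 as circles and replicate 2 as squares. The vertical lines give the medians over all genes (4 peaks and 13.2 kb), and PRRX1 and PRRX2 stand at 111 kb or more of cover while the other genes stand at 33.2 kb or less.

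The distal peaks were not spread evenly around the TSS. At TWIST1, TWIST2 and TCF21 all of them lay downstream, 9 and 8, 10 and 11, and 5 and 6 in the replicates, with 0 upstream. At EBF1 and EBF2 they were divided equally, with 6 upstream and 6 downstream at EBF1 and 8 and 8 at EBF2, in both replicates. At PRRX2 most lay upstream by number, 12 of 16 and 12 of 18, where 5 other TSSs are found. This count does not give the length acetylated on each side. Downstream, a block of 45.9 kb counted as 1 peak in replicate 1. Its counterpart of 52.3 kb in replicate 2 reached the TSS of PTGES and was not counted. At MEOX2, 7 of 9 and 6 of 8 lay inside the gene. The gene bodies as a whole had a median H3K27ac cover of 36.5%, against 6.02% over protein-coding genes and 3.69% over all genes. All 10 genes lay above the median of all genes (50% of all genes do). Short genes that fit inside the promoter peak, TWIST1 and TCF21, reached 100%, whereas EBF1, with 7.46% and 6.63%, OSR1, with 5.84% and 6.56%, and EBF2, with 10.2% and 9.88%, are long. MEOX1, at 21.0 kb, was as low, with 4.82% and 10.3%.

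**Figure D4:**
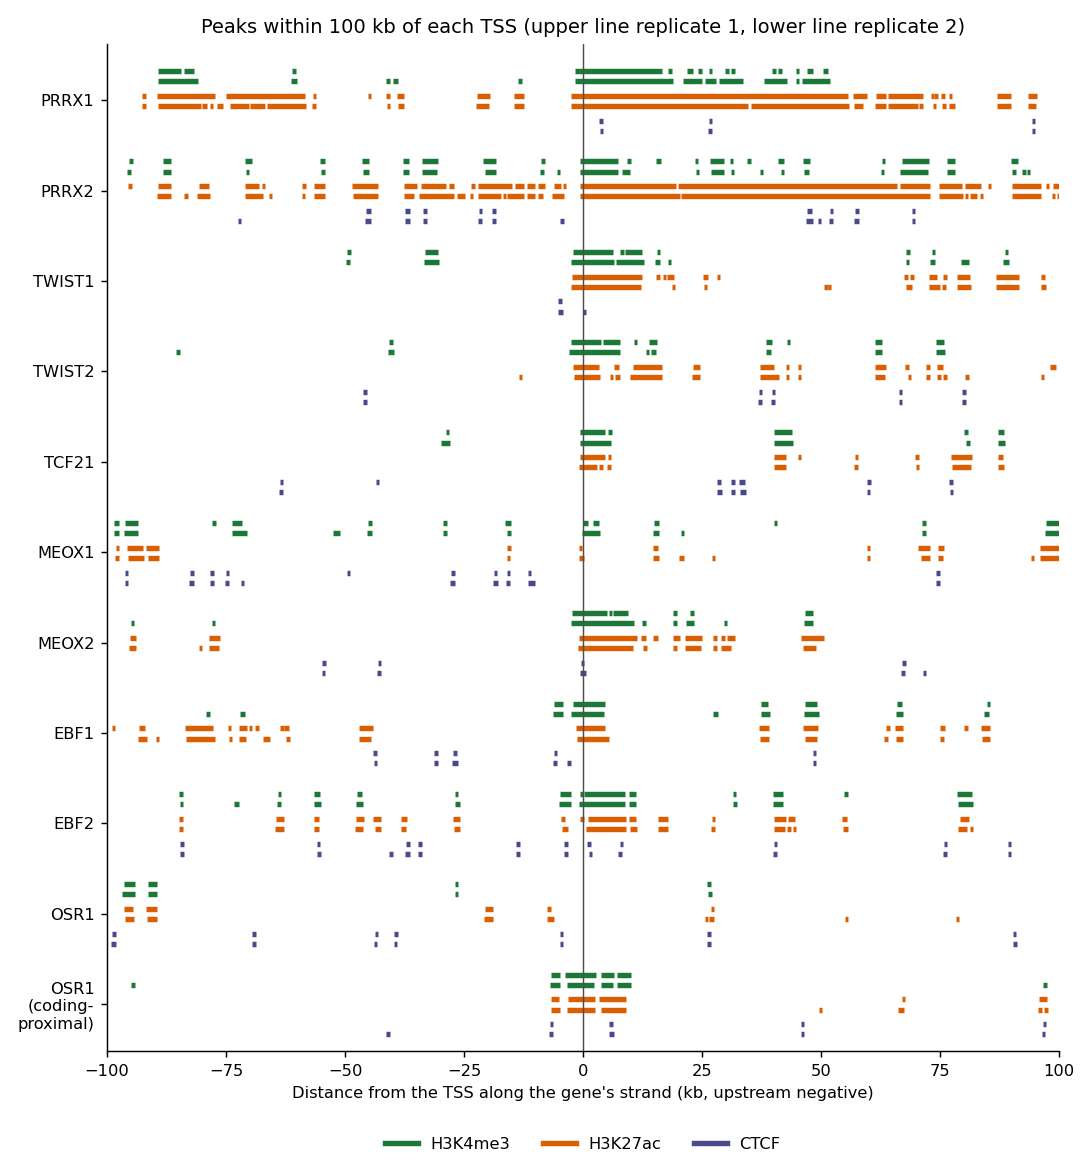
Peaks of H3K4me3, H3K27ac and CTCF within 100 kb of each TSS, drawn to scale along the strand of the gene (kb, upstream negative), with replicate 1 above replicate 2 for each target. The long H3K27ac blocks of PRRX1 and PRRX2, the upstream flanks of TWIST1, TWIST2 and TCF21 without distal H3K27ac peaks shared by the replicates, and the missing peaks at the RefSeq start of OSR1 can be seen.

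The distal peak with the highest mean fold enrichment was taken for each gene. That of PRRX2 was the strongest of the 10. Its summit lies in an intron of PRRX2, 28.9 kb downstream of the TSS, with a width of 45.9 and 52.3 kb and fold enrichments of 48.9 and 53.9, rank 11 of the 52620 distal peaks of replicate 1. In replicate 2 the same peak extends to the TSS of PTGES, which encodes a prostaglandin E synthase and lies 71.3 kb downstream of PRRX2. It was therefore distal in replicate 1 alone, as was the block counted for EBF2, which replicate 2 listed as the peak at the TSS. The strongest distal peak of PRRX1 was intergenic, 61.0 kb upstream, with fold enrichments of 25.3 and 26.5. Those of TWIST1, TWIST2, EBF1, EBF2 and MEOX1 had mean fold enrichments between 12.8 and 15.7, that of OSR1 reached 11.7 and 10.5 in the replicates, and those of TCF21 and MEOX2 had means of 8.51 and 8.06. The peak of TCF21 lies in an exon of SLC2A12, a glucose transporter gene, and that of MEOX1 in an intron of DUSP3, a phosphatase gene. For 7 of the 10 genes the strongest distal peak was overlapped by H3K4me3 peaks of both libraries, at MEOX2 by 1 library and at MEOX1 and OSR1 by 0, compared with 26.2% of all distal peaks. CTCF peaks of both libraries overlapped those of PRRX2, TCF21, EBF1 and EBF2, 4 of 10, compared with 11.6% of all distal peaks. These peaks were chosen for their height and some were very wide, and the part of width in the overlaps was not tested. The median over all distal peaks was 4.86 in replicate 1 and 4.98 in replicate 2. The 200 bases at the replicate 1 summit are shown for the strongest peak, at PRRX2 (chr1:269881914-269882113), and, chosen after its sequence was seen, for that of TWIST2, which is intergenic and 62.8 kb downstream (chr15:138291369-138291568). Both are on the plus strand of Sscrofa11.1, and capitals mark E-boxes (CANNTG, the same on both strands).
PRRX2 distal summit: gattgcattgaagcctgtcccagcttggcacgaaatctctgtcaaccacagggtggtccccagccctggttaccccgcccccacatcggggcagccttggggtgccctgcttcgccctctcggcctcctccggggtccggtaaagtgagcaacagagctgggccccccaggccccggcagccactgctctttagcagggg
TWIST2 distal summit: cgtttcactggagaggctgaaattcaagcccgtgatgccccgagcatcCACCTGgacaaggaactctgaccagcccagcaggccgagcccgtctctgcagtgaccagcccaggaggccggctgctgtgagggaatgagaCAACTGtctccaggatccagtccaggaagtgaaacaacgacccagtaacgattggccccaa
The TWIST2 stretch held 2 E-boxes and the PRRX2 stretch 0. E-boxes are common, and 62.4% of all distal summits held at least 1 within 200 bases. The homeodomain core TAATTA was in 4.83% of them and in none of the 10 summits of the mesenchymal genes. Within 250 bases upstream of the TSS, 6 of the 10 genes had an E-box, compared with 65.5% of all genes, and none had TAATTA, compared with 4.57%.

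CTCF peaks lay within 1 kb of the TSS in both replicates at 1 of the 10 genes, MEOX2, a share near the 15.2% of all genes. The peak was weak, with fold enrichments of 4.77 and 5.21. It was lost when the replicate peaks had to overlap by 50%. With either replicate left out the count was 2, against 19% and 15.6% of all genes, and within 5 kb it was 5, against 31.4%. TWIST1 had a peak in replicate 2 alone and EBF2 in replicate 1 alone, with fold enrichments of 5.64 and 6.32. The interval between the nearest CTCF peaks on each side of the TSS had a median of 75.3 kb over the 10 genes. It was 62.8 kb over protein-coding genes and 70.9 kb over all genes. Above the median of all genes lay 5 of the 10 (50% of all genes do). Without replicate 1 the median was 59.8 kb, against 60.4 kb over all genes. The genes covered a wide range. TWIST1 had 242 kb free of CTCF peaks shared by the replicates and PRRX1 had 152 kb, while EBF2 had only 4.89 and 4.98 kb. The TWIST1 value rested on leaving out the peak at its TSS that replicate 2 alone listed, and without replicate 1 it was 5.12 kb.

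Within 100 kb of the TSS the median number of CTCF peaks shared by the replicates was 5.50, against 4 over all genes. EBF2 had 11, PRRX2 and MEOX1 had 9, OSR1 had 7 and TCF21 had 6. TWIST1 had 1 and PRRX1 had 3. With unshared peaks counted too, replicates 1 and 2 listed 11 and 12 at EBF2, 9 and 12 at PRRX2, and 10 and 10 at MEOX1. They listed 7 and 7 at OSR1, 7 and 6 at TCF21, 1 and 2 at TWIST1, and 3 and 3 at PRRX1.

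The direction of CTCF binding was read from a motif learned on 3000 CTCF peaks away from these genes. The score limit for a match was set so that 5% of nearby control windows passed. At that limit the motif was found in 82.8% of 17172 other peaks. It was present in 14 of the 20 CTCF peaks nearest to the 10 TSSs. It was on both sides of 6 genes. The motifs pointed at each other across MEOX1 alone, away from each other across PRRX2 and TWIST2, and in the same direction across TWIST1, EBF1 and OSR1. The shares of these arrangements over all genes were not measured, so the counts describe these 6 genes only. At the coding-proximal start of OSR1, the nearest CTCF peaks lay 6.72 kb upstream and 6.03 kb downstream, and their motifs also pointed at each other. The sites of TWIST1 (upstream chr9:88295002-88295031, plus strand, and downstream chr9:88052554-88052583, plus strand, in an intron of HDAC9), of MEOX1 (chr12:19420200-19420229, plus strand, and chr12:19505987-19506016, minus strand) and of the coding-proximal OSR1 start (chr3:118753484-118753513, plus strand, in an intron of OSR1, and chr3:118766228-118766257, minus strand) are shown because they bound the widest interval between shared peaks and the convergent pairs. Capitals mark the motif match on the given strand of Sscrofa11.1.
TWIST1 upstream CTCF: tttgcCAATGACCACAAGAGGACACaattt
TWIST1 downstream CTCF: tctgaATGGAGCCAGCAGGGGCTGCtgtca
MEOX1 upstream CTCF: tctgaTTCTAACCACAAGATGGCGTcccag
MEOX1 downstream CTCF: gtgtgTTTCTGCCACAAGGTGGCAGtgttg
OSR1 upstream CTCF: tcactTGCTCACCAGCAGGTGGCGCgtttt
OSR1 downstream CTCF: tccagGCCTGTCCAGCAGGGGGCAGcgtgg
The upstream site of TWIST1 lay 4.90 kb from the TSS and was the strongest of the 20, with fold enrichments of 77.0 and 83.6. The next gene beyond it, FERD3L, a bHLH gene 33.1 kb upstream, had H3K4me3 peaks of 2.79 and 3.17 kb and no H3K27ac peak. The downstream site lay 238 kb away. The OSR1 sites had fold enrichments of 27.1 and 36.9 upstream and 28.1 and 35.9 downstream, and H3K4me3 and H3K27ac peaks of the OSR1 start lay between them.

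CpG-rich sequence was measured within 10 kb of each TSS to set beside the width of H3K4me3. Over all 15564 genes with H3K4me3, the length of CpG-rich sequence and the width of the peak had a Spearman's rho of 0.222 across genes, which are not independent replicates. The 9 marked mesenchymal genes had a median of 4.60 kb of such sequence, against 2.35 kb over all marked genes. EBF2 had 9.50 kb, TWIST2 7.90 kb and EBF1 6.60 kb, and MEOX1 had 0.900 kb. PRRX1, PRRX2, TWIST1 and MEOX2 had wider H3K4me3 than the 95th percentile of genes with similar lengths of CpG-rich sequence, and the other 5 did not. PRRX1 had 5.15 kb of CpG-rich sequence and a mean H3K4me3 width of 19.4 kb, where the 95th percentile of genes with 4 to 6 kb was 7.71 kb. TWIST1, in the same range with 4.60 kb, had a mean width of 8.71 kb. PRRX2 had 3.95 kb and a mean width of 7.99 kb, where the 95th percentile of genes with 3 to 4 kb was 7.05 kb. MEOX2 had 2.05 kb and a mean width of 10.4 kb, where the 95th percentile of genes with 2 to 3 kb was 6.59 kb.

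**Figure D5:**
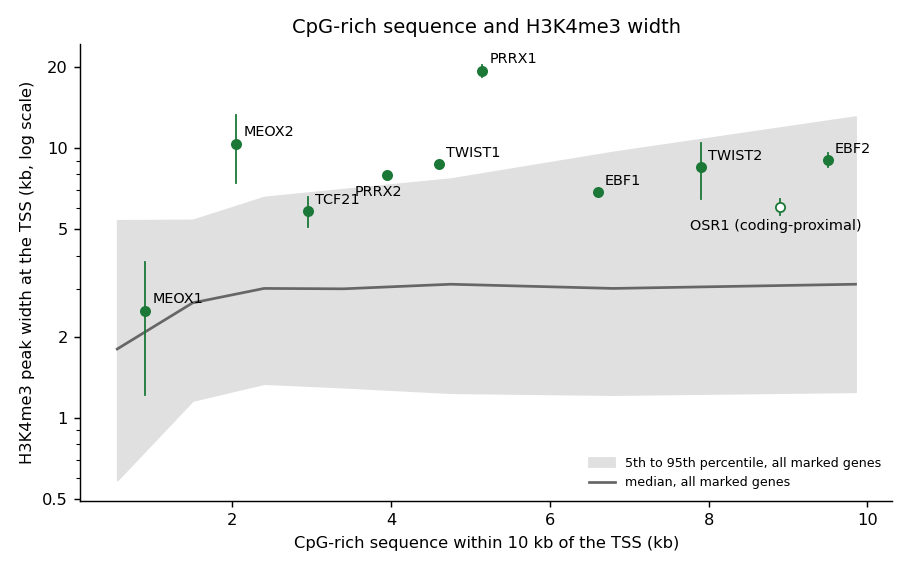
CpG-rich sequence within 10 kb of the TSS (kb) and width of the H3K4me3 peak at the TSS (kb, log scale), with points at the mean of both replicates and bars joining the replicates, where the grey band spans the 5th to 95th percentile of all marked genes in bins of CpG-rich length, and PRRX1 (19.4 kb), PRRX2 (7.99 kb), TWIST1 (8.71 kb) and MEOX2 (10.4 kb) lie above it. The open symbol is OSR1 at its coding-proximal start.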

How the data were processed

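The authors aligned the reads by bowtie2, discarded duplicates and fragments without a unique position, and ran the MACS2 peak caller on every library, and the submitters' processing notes name the build Sscrofa11.1. Each deposited list holds, peak by peak, the position, the fold enrichment as a ratio to the control, the −log10 of the p-value and of the q-value, and a score that was not used. Per library, q-values reached 0.0432 to 0.0499, although the study's methods state a stricter limit, and no peak was dropped for its q-value. Replicates are as labelled, and the labels do not say that they came from separate cultures or fetuses, so the spread between them may be technical. The 2 input libraries were not analysed here.

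Gene positions came from the RefSeq annotation of Sscrofa11.1, and the TSS is the 5′ end of the gene. A gene was called marked if a peak lay within 1 kb of the TSS in both replicates, and its width is that of the widest such peak, averaged over the replicates. Distal peaks and CTCF peaks had to overlap between replicates by at least a base. CpG-rich sequence is the union of windows of 500 bp, moved by 50 bp, with at least 50% GC and an observed/expected ratio of at least 0.6. The CTCF motif was learned from the strongest peaks on odd-numbered autosomes more than 500 kb from the 10 genes, and scanned 100 bp either side of each summit. Scripts ran in Python 3.11.15 with numpy 2.4.6, pandas 2.3.3, pysam 0.24.0 and samtools 1.23.1. They were tested on simulated data. With peaks planted at some genes of chromosome 18, the expected width or absence of a peak was recovered at 100% of its 659 genes. A planted motif was found in 99.7% of 1000 sequences.

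The 10 genes and the lists were chosen with earlier results of these data known. All 10 genes, and the relatives, partners, bHLH genes of other lineages, markers and neighbours listed with them, could be named. The widest 5%, the H3K27ac cover within 100 kb, the coding-proximal start the second OSR1 start and the final motif settings were chosen after values had been seen. KRT14 and TUBB3 were not analysed here, and a few list genes and 1 sequence are not reported here. Alternatives covered the replicates, the q-value, the overlap, the TSS, the distances, stitched peaks and protein-coding genes as background.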

Additional observations from a re-analysis of the deposited data

How the results depend on the processing

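No paired analysis was possible because the results come from no test, and replicate numbers were given per target. Of 114 values recomputed under 11 settings for 14 results, 88 moved by less than the spread between replicates (counts by less than 1.5 times) and 26 moved further. Protein-coding genes as background changed only the background values and the widest 5% limits. Its values for the listed genes were thus bound to stay nearly the same, and they are included in the 88. The CTCF-free interval, above the median of all genes with both replicates, fell below it without replicate 1, and the share of genes with CTCF at the TSS, below that of all genes with both replicates, rose above it with either replicate left out and at 5 kb. Leaving out either replicate gave 2 genes with CTCF at the TSS in both cases, median widths of 7.46 to 8.94 kb for H3K4me3 and 5.93 to 8.59 kb for H3K27ac, 11.5 to 12.0 distal peaks, CTCF-free intervals of 59.8 to 69.8 kb and 6 CTCF peaks within 100 kb. A −log10 q-value of at least 5 gave an H3K27ac width of 9.16 kb, 7 distal peaks, a gene body cover of 34.0% and an H3K27ac cover of 27.2 kb. An overlap of 50% gave 0 genes with CTCF at the TSS, an H3K27ac width of 9.16 kb, 8 distal peaks and a CTCF-free interval of 86.7 kb. In each of these settings 1 gene lost its H3K27ac call, MEOX1 at the q-value and EBF2 at the overlap. The median width of 9.16 kb is over the 8 genes that kept it, whose own widths did not change. With any transcript start the interval was 84.4 kb, and with the coding-proximal start, added after the data were seen, 5 CTCF peaks lay within 100 kb. A TSS distance of 5 kb gave 5 genes with CTCF and an H3K27ac width of 8.24 kb, and stitching gave an H3K4me3 width of 10.5 kb. Windows reaching 100 kb beyond both gene ends gave 16.2 distal peaks, 7.50 CTCF peaks and 38.1 kb of H3K27ac. Leaving out a replicate also dropped the rule that distal and CTCF peaks be shared. The median of distal peaks over all genes was then 6 without replicate 1 and 5 without replicate 2. Windows reaching beyond the gene ends contain the main windows and can only add peaks. Other causes of these shifts were not tested. With 2 libraries per target and no read counts, differences within the replicate spread could not be resolved.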
